A study of Homo sapiens with 12 samples.

Results

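The genes described here are 43 genes of mitosis and the spindle checkpoint, listed by symbol for their known role in cell division, with no measured value in the rule that chose them. Earlier results of these data were known when the list was made. The genes were followed in RNA sequencing of LM2 cells, a subline of MDA-MB-231, a human breast cancer line, with a strong tendency to colonize the lung. Transduction delivered a short hairpin RNA (shRNA), either a scramble control or one against EZH2, and transfection delivered a small interfering RNA (siRNA), either a scramble control or one against ZRANB1. Each of these 4 groups had 3 libraries, 12 in all. EZH2 is the histone H3 lysine methyltransferase of Polycomb repressive complex 2, and ZRANB1 is a deubiquitinase. All groups share the line and its culture medium, so the 4 groups are 1 cell model, and neither RNA agent removes the gene itself. The hairpin and siRNA sequences and the time of harvest were not stated in the descriptions used. Of the 43 genes, 42 were matched among the 24556 symbols of the deposited expression table, and all 42 passed the filter on low values (a mean of 1 FPKM or more over the 12 values), which left 11929 genes to test. FPKM divides the fragments of a gene by its transcript length and by the mapped fragments of the library, so it compares levels between genes per length.

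Mitosis is driven by CDK1 bound to cyclin A or B. CDC25 phosphatases switch this kinase on, and polo-like and Aurora kinases spread the signal to centrosomes, spindle and chromosomes. Kinetochores then tie chromosomes to spindle microtubules, and the spindle assembly checkpoint holds back CDC20 and the anaphase-promoting complex until each chromosome is attached. Most of these genes are transcribed in a wave in G2 and M phase, through the MuvB complex with B-MYB and FOXM1, so in a culture their transcript level is widely read as a sign of the share of dividing cells. In bulk RNA, fewer cells in G2 and M phase and less transcript per cell cannot be told apart.

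The targeted genes were measured first. EZH2 stood at 34.2, 35.6 and 36.3 FPKM with the scramble shRNA and at 16.1, 16.1 and 17.3 FPKM with the EZH2 shRNA. With the scramble siRNA it stood at 46.5, 48.7 and 50.6 FPKM, and in the libraries labelled ZRANB1 siRNA at 28.3, 30.4 and 32.4 FPKM. EZH2 was thus lower with the EZH2 shRNA and with the ZRANB1 siRNA than in their own controls, without overlap. ZRANB1 stood at 10.5, 11.5 and 12.1 FPKM with the scramble siRNA and at 9.05, 9.49 and 11.5 FPKM with the ZRANB1 siRNA, a log2 difference of -0.17 (95% interval -0.42 to 0.076) with an adjusted p of 0.349 in limma, so a lower target transcript was not shown and that group is named by its label throughout. Within a group the 3 values of a gene were stored in sorted order, so they are given here from lowest to highest and cannot be traced to a library. The labels do not say that the 3 libraries came from separate cultures, and the p-values measure no more than the spread among these samples, which may be of technical origin. Of 5 genes high in MDA-MB-231, all 5 were tested, with a summed level over the group means of 4343 to 4886 FPKM. By test, 0 of the 5 differed with the EZH2 shRNA, 3 with the ZRANB1 siRNA and 4 between the scramble groups. Of all tested genes 6.41%, 16.6% and 50.6% differed in the same comparisons. Of the 5 genes CD44 had means of 264 FPKM with the scramble shRNA, 261 with the EZH2 shRNA, 118 with the scramble siRNA and 206 with the ZRANB1 siRNA. ESR1 and CDH1, which mark luminal and epithelial breast cells, stayed under 0.1 FPKM in each of the 12 libraries, and PGR was listed at 0. Of the 6 luminal markers only KRT19 passed the filter, and their summed level was 8.14 FPKM with the scramble shRNA, 7.43 with the EZH2 shRNA, 48.1 with the scramble siRNA and 29.05 with the ZRANB1 siRNA. Of 4 fibroblast markers only COL1A1 passed, with summed levels of 25.2, 19.8, 8.83 and 17.7 FPKM in the same order. Sums ran from 35.4 to 42.97 FPKM for 5 blood markers, nearly all of it CD68, and from 0.345 to 1.63 FPKM for 3 endothelial markers. CD44 and the luminal and fibroblast sums moved with the arm and with the ZRANB1 siRNA label, and their part in the results below was not tested.

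The mitotic genes were strongly expressed in all groups. Ranked by mean level among the tested genes, the lowest of them, the hyaluronan receptor and spindle gene HMMR, stood at the percentile 28.9, the median at 87.8 and the highest, the ubiquitin-conjugating enzyme gene UBE2C, at 98.1. The median of the 42 group means was 65.4 FPKM with the scramble shRNA, 63.8 with the EZH2 shRNA, 59.4 with the scramble siRNA and 58.5 with the ZRANB1 siRNA. The highest of the 4 group means was that of the scramble siRNA for 21 genes, of the scramble shRNA for 17, of the EZH2 shRNA for 4 and of the ZRANB1 siRNA for 0. This ranking was not made over all tested genes, so whether the 42 stand out in it is not known.

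**Figure D1:**
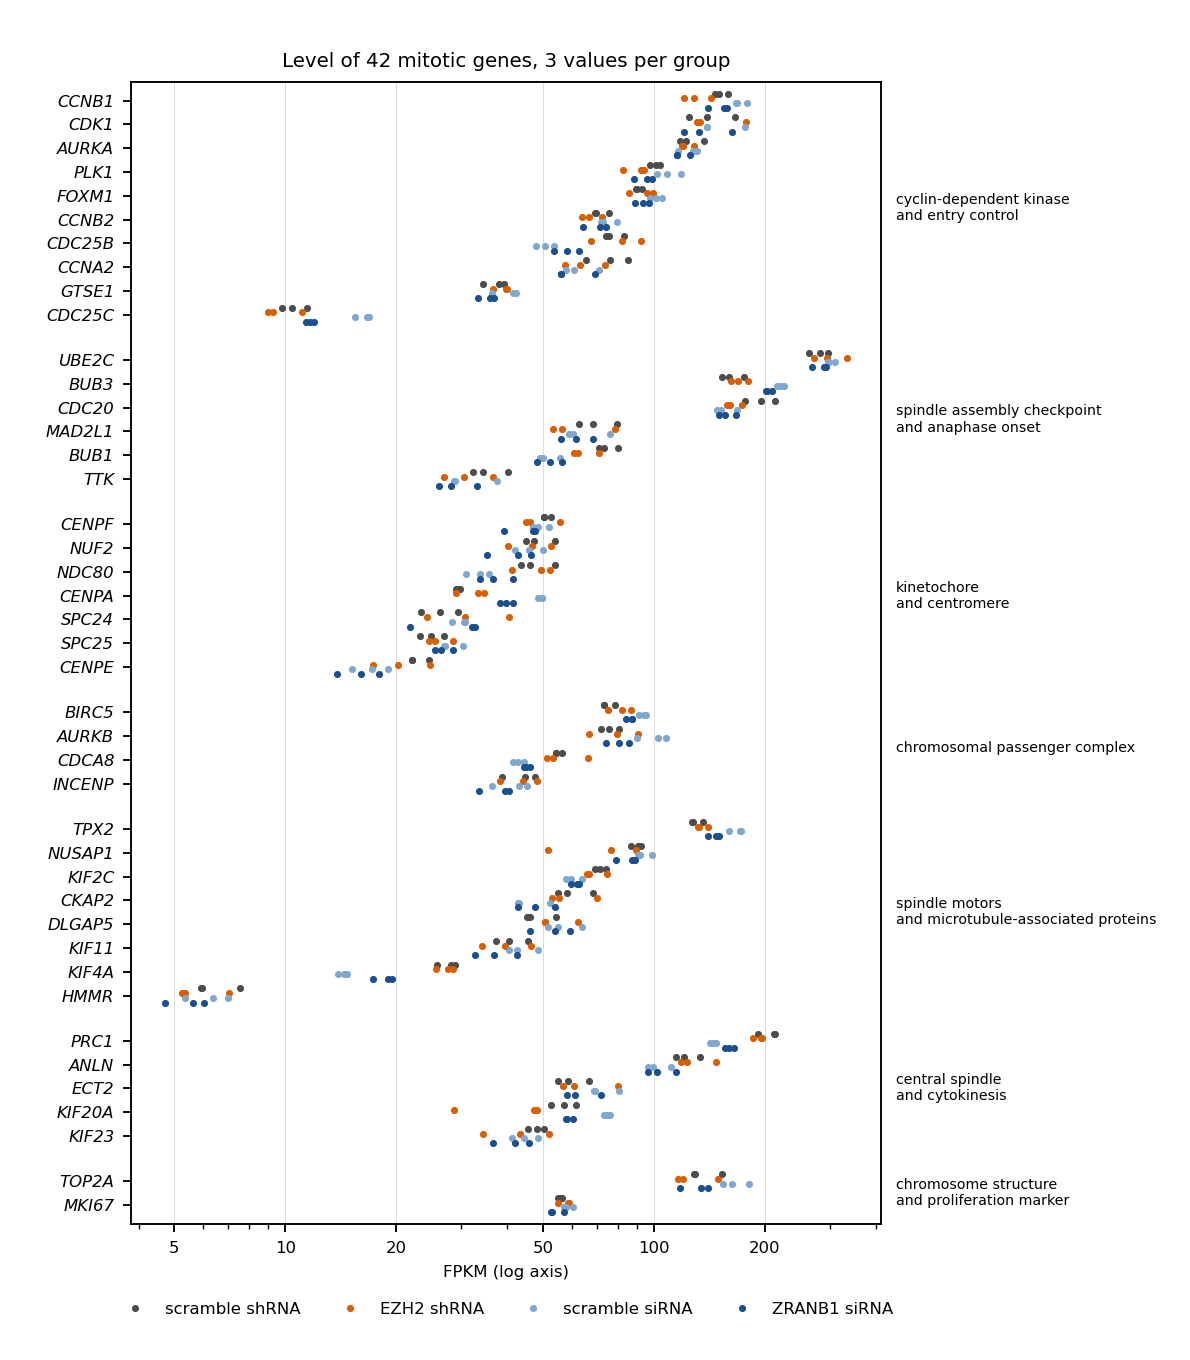
Level in FPKM (log axis) of the 42 mitotic genes, grouped by role, with 3 points per group of libraries. Levels run from 4.72 FPKM for HMMR to 334 FPKM for UBE2C, and for most genes the 4 groups lie close together. No siRNA value overlaps the shRNA values for KIF4A, CENPA, BUB3, PRC1, BUB1, CDC25B, CDCA8, KIF2C and TPX2.

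The EZH2 shRNA comparison asked whether these transcripts change when EZH2 is lowered. None of the 42 was called in limma at an adjusted p below 0.05, against 6.41% of all tested genes (3.39% higher and 3.03% lower). That share depended on the fit: with the shRNA groups alone 222 of 11869 genes were called (1.87%), and with 1 value per gene left out 3.43% to 4.70%, and the count among the 42 was 0 in each. Of the 42, 6 had an unadjusted p below 0.05 (14.3%, against 21.4% of all tested genes), 25 had a lower mean (59.5%, against 53.0%) and 17 a higher one, and the median log2 difference was -0.030 against -0.014 for all tested genes. In 4 genes the 3 EZH2 shRNA values all lay below the control range, and in 0 they lay above it, against 11.6% and 10.6% of all tested genes. The 95% interval of the difference lay within 1.5-fold in either direction (0.58 on the log2 scale) for 39 of the 42 genes, the others being NUSAP1, SPC24 and KIF20A.

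The gene nearest to a call with the EZH2 shRNA was KIF20A, a kinesin of the central spindle needed for cytokinesis, named after its values were seen. It stood at 52.7, 57.1 and 61.7 FPKM with the scramble shRNA and at 28.8, 47.3 and 48.1 FPKM with the EZH2 shRNA. The groups did not overlap, and 1 of the 3 EZH2 shRNA values lay far under the other 2. The log2 difference was -0.49 (SE 0.16), with an adjusted p of 0.0922 in limma. Leaving out 1 value at a time gave differences from -0.61 to -0.25 and adjusted p-values from 0.0495 to 0.191. NUSAP1, which bundles spindle microtubules, had a like spread, at 51.5, 76.5 and 89.5 FPKM against 86.96, 90.7 and 92.4 FPKM in the control, with an adjusted p of 0.224. Whether both low values came from the same library cannot be read from the table.

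The comparison of the ZRANB1 siRNA libraries with the scramble siRNA gave 4 calls: the phosphatase gene CDC25C, the centromeric histone gene CENPA and the spindle assembly factor gene TPX2 fell, and the chromokinesin gene KIF4A rose. These were 9.52% of the 42, a smaller share than the 16.6% of all tested genes called in this comparison (10.1% higher and 6.50% lower). Of the 42, 32 had a lower mean with the ZRANB1 siRNA (76.2%, against 53.2% of all tested genes), and the median log2 difference was -0.11 against -0.017. In 13 of the 42 (31.0%) the 3 ZRANB1 siRNA values all lay below the control range and in 3 (7.14%) above it, against 18.0% and 18.5% of all tested genes. Differences were small: the 95% interval lay within 1.5-fold for 39 of the 42, the others being CDC25C, TOP2A and KIF20A.

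**Figure D2:**
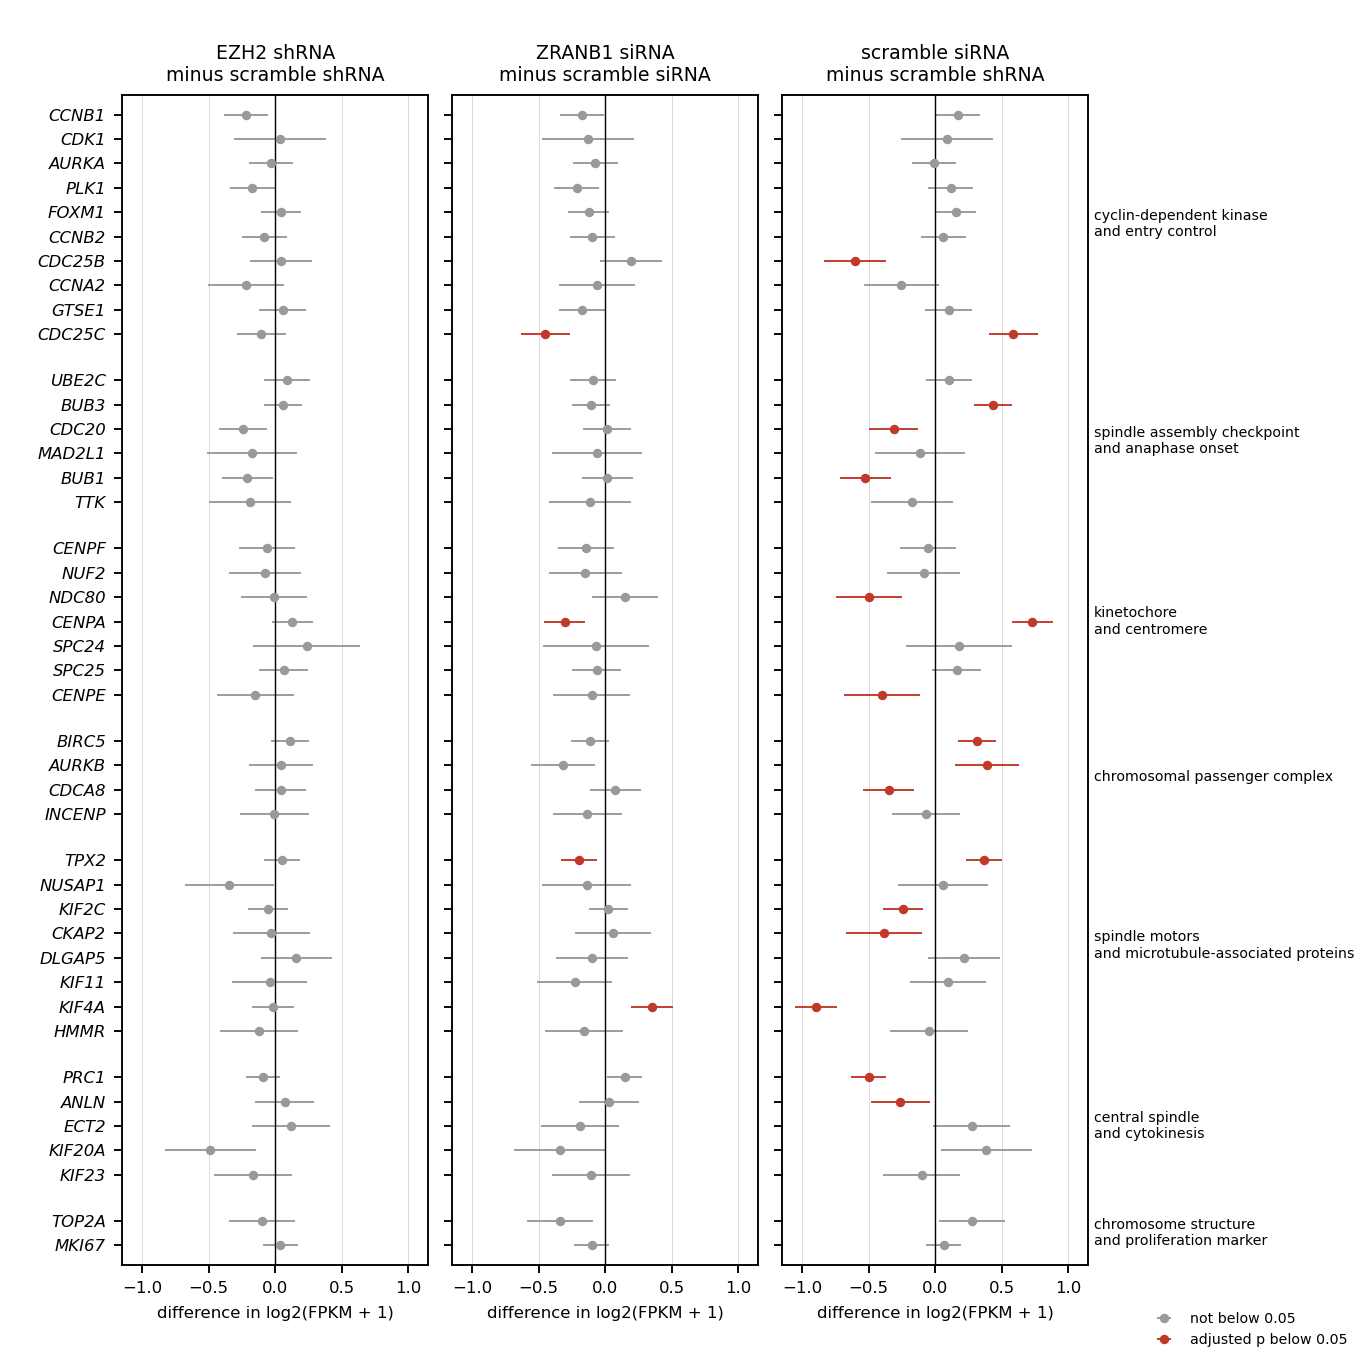
Difference in log2(FPKM + 1) of each mitotic gene in 3 comparisons, with the 95% interval from limma; genes with an adjusted p below 0.05 are in red. With the EZH2 shRNA 0 genes are red, with the ZRANB1 siRNA 4 are, and between the 2 scramble groups 17 are.

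Among genes that control entry into mitosis, CDC25C, one of the phosphatases that activate CDK1, showed the largest fall. It stood at 15.5, 16.7 and 16.8 FPKM with the scramble siRNA and at 11.4, 11.7 and 11.9 FPKM with the ZRANB1 siRNA, and at 9.78, 10.5 and 11.4 FPKM (scramble) and 8.98, 9.29 and 11.1 FPKM (EZH2) in the shRNA groups. The ZRANB1 siRNA values lay wholly under their control, between the scramble siRNA and most shRNA values. The log2 difference was -0.45 (SE 0.084, adjusted p = 0.00365, limma). The call was kept in each of 7 other settings and after each of 6 leave-outs of its own values, though not with a 1.5-fold minimum. Those leave-outs kept the variance prior of the full fit. Its sister CDC25B had values of 47.98, 50.6 and 53.7 FPKM with the scramble siRNA and of 53.7, 58.2 and 62.7 FPKM with the ZRANB1 siRNA, which overlapped slightly and did not pass the test (log2 difference 0.19, adjusted p = 0.265). The kinase CDK1 and its partners CCNB1, CCNB2 and CCNA2, the kinases PLK1 and AURKA, the transcription factor FOXM1 and the G2 and S phase protein GTSE1 had log2 differences from -0.21 to -0.064, and none of them was called. With the EZH2 shRNA the differences of all 10 genes of this group lay between -0.22 and 0.057.

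Cyclin B1, PLK1 and KIF20A were lower with the EZH2 shRNA and with the ZRANB1 siRNA than in their controls, without overlap. None of them was called in the main fit, and the values of KIF20A are given in other paragraphs. CCNB1 stood at 147, 150.2 and 159 FPKM with the scramble shRNA and 121, 129 and 143 FPKM with the EZH2 shRNA (adjusted p = 0.121), and at 167, 168 and 179 FPKM with the scramble siRNA and 141, 155 and 158 FPKM with the ZRANB1 siRNA (adjusted p = 0.138, limma). PLK1, which drives centrosome maturation and mitotic entry, stood at 98.03, 101 and 104 FPKM (scramble) and 82.4, 92.1 and 94.2 FPKM (EZH2) in the shRNA groups (adjusted p = 0.221) and at 102, 109 and 118 FPKM (scramble) and 88.6, 95.7 and 99.003 FPKM (ZRANB1) in the siRNA groups (adjusted p = 0.0845). CCNB1, PLK1 and KIF20A were picked out after their values were seen. Of all tested genes 11.6% lay wholly below the control range with the EZH2 shRNA and 18.0% with the ZRANB1 siRNA. The share that did so in both comparisons was not counted. Over the 42 genes, 18 had lower means with both, 3 had higher means with both, 14 were higher with the EZH2 shRNA and lower with the ZRANB1 siRNA, and 7 were the reverse. Of all tested genes 53.0% had a lower mean with the EZH2 shRNA and 53.2% with the ZRANB1 siRNA. The joint counts were not made over all tested genes, so whether the 42 stand out in them is not known.

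Among checkpoint and anaphase genes 0 of 6 were called with the EZH2 shRNA or the ZRANB1 siRNA, with 2 having an unadjusted p below 0.05 with the EZH2 shRNA and 0 with the ZRANB1 siRNA. Of all tested genes 21.4% and 29.5% had such a p. UBE2C, which works with the anaphase-promoting complex, stood at 265, 282 and 298 FPKM with the scramble shRNA, 272, 295 and 334 with the EZH2 shRNA, 298, 299.6 and 310.2 with the scramble siRNA and 269.6, 289 and 294 with the ZRANB1 siRNA. The shRNA groups overlapped, and the ZRANB1 siRNA values lay just under those of the scramble siRNA, with log2 differences of 0.088 and -0.090. BUB3, the checkpoint scaffold, stood at 154, 160.3 and 176 FPKM (scramble) and 162, 169 and 179.8 FPKM (EZH2) in the shRNA arm and at 216, 221 and 226 FPKM (scramble) and 202, 203 and 209 FPKM (ZRANB1) in the siRNA arm. CDC20, the activator of the anaphase-promoting complex that the checkpoint inhibits, stood at 177, 196 and 213 FPKM with the scramble shRNA, 158, 161 and 174 with the EZH2 shRNA, 149, 153 and 169 with the scramble siRNA and 150.4, 156 and 168 with the ZRANB1 siRNA. Its EZH2 shRNA values lay under the control range, with a log2 difference of -0.24 and an adjusted p of 0.111 in limma. The kinases BUB1 and TTK and the inhibitor MAD2L1 had log2 differences from -0.21 to -0.17 with the EZH2 shRNA and from -0.11 to 0.017 with the ZRANB1 siRNA. The checkpoint kinase gene BUB1B was not analysed here: its name appears in the table as part of a merged row with the neighbouring gene PAK6, whose reads cannot be separated.

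Among kinetochore and centromere genes, 1 of 7 was called with the ZRANB1 siRNA (14.3%, against 16.6% of all tested genes). This was CENPA, the histone H3 variant that marks centromeres. It stood at 48.7, 49.7 and 49.9 FPKM with the scramble siRNA and 38.2, 39.9 and 41.5 FPKM with the ZRANB1 siRNA, and at 29.05, 29.4 and 29.8 FPKM (scramble) and 29.2, 33.3 and 34.6 FPKM (EZH2) in the shRNA groups. The ZRANB1 siRNA values lay wholly under their control and above all shRNA values. The log2 difference was -0.31 (SE 0.070, adjusted p = 0.0121, limma). The call was kept in each of 7 other settings and after each of 6 leave-outs of its own values, though not with a 1.5-fold minimum. Those leave-outs kept the variance prior of the full fit. The outer kinetochore subunits NDC80, NUF2, SPC24 and SPC25, the motor CENPE and the large coiled-coil protein CENPF were not called with the EZH2 shRNA or the ZRANB1 siRNA, with log2 differences from -0.15 to 0.24 with the EZH2 shRNA and from -0.15 to 0.15 with the ZRANB1 siRNA.

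The chromosomal passenger complex, which corrects faulty attachments, had 0 of 4 members called with the EZH2 shRNA or the ZRANB1 siRNA, with 0 at an unadjusted p below 0.05 with the EZH2 shRNA (21.4% of all tested genes) and 1 with the ZRANB1 siRNA (29.5% of all). Its kinase AURKB stood at 90.1, 102 and 108 FPKM with the scramble siRNA and 74.3, 80.5 and 85.7 FPKM with the ZRANB1 siRNA, and at 72.2, 75.6 and 80.5 FPKM (scramble) and 66.8, 79.4 and 90.6 FPKM (EZH2) in the shRNA groups. The siRNA groups did not overlap, and the adjusted p in limma was 0.0762 for a log2 difference of -0.31. Survivin, encoded by BIRC5, stood at 91.5, 93.9 and 95.1 FPKM (scramble) and 84.4, 87.2 and 87.5 FPKM (ZRANB1) in the siRNA groups and at 73.4, 73.5 and 78.4 FPKM (scramble) and 74.9, 81.9 and 86.6 FPKM (EZH2) in the shRNA groups. CDCA8 (borealin), at 41.5, 42.8 and 44.6 FPKM (scramble) and 44.6, 45.2 and 46.3 FPKM (ZRANB1) in the siRNA groups and 54.3, 54.4 and 56.4 FPKM (scramble) and 51.5, 53.3 and 66.2 FPKM (EZH2) in the shRNA groups, had its ZRANB1 siRNA values just above those of the scramble siRNA. None of these differences was called, and INCENP, the scaffold, had log2 differences of -0.0055 and -0.13.

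Spindle motors and microtubule-associated proteins gave the single rise. KIF4A, a kinesin that acts on chromosome arms and the central spindle, stood at 13.9, 14.4 and 14.7 FPKM with the scramble siRNA and 17.3, 19.1 and 19.5 FPKM with the ZRANB1 siRNA, and at 25.9, 28.2 and 28.9 FPKM (scramble) and 25.6, 27.7 and 28.5 FPKM (EZH2) in the shRNA groups. The ZRANB1 siRNA values lay above their control and under all shRNA values. The log2 difference was 0.35 (SE 0.072, adjusted p = 0.00608, limma). The call was kept in each of 7 other settings and after each of 6 leave-outs of its own values, though not with a 1.5-fold minimum. Those leave-outs kept the variance prior of the full fit. KIF4B, a near-identical copy of KIF4A, reached at most 0.101 FPKM in a library, and how reads shared by the copies were split is not known. TPX2, which activates AURKA and nucleates microtubules, stood at 160.2, 172 and 172 FPKM with the scramble siRNA and 141, 148 and 151 FPKM with the ZRANB1 siRNA, and at 127, 128 and 136 FPKM (scramble) and 132, 133 and 140.3 FPKM (EZH2) in the shRNA groups. The groups of the siRNA arm did not overlap, and the log2 difference was -0.20 (SE 0.061, adjusted p = 0.0454, limma). The TPX2 call was kept in 2 of 7 other settings and after 1 of 6 leave-outs, with adjusted p-values up to 0.124. KIF11, KIF2C, HMMR, DLGAP5, NUSAP1 and CKAP2, which build or bind the spindle, had log2 differences from -0.23 to 0.059 with the ZRANB1 siRNA and were not called. With the EZH2 shRNA the differences of all 8 genes of this group lay between -0.34 and 0.16.

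Central spindle and cytokinesis genes had 0 of 5 called with the EZH2 shRNA or the ZRANB1 siRNA, with 1 at an unadjusted p below 0.05 with the EZH2 shRNA (21.4% of all tested genes) and 2 with the ZRANB1 siRNA (29.5% of all). PRC1, which bundles the microtubules of the central spindle, stood at 143, 145 and 147 FPKM with the scramble siRNA and 156, 161 and 165 FPKM with the ZRANB1 siRNA, and at 192, 212 and 213 FPKM (scramble) and 186, 196 and 197 FPKM (EZH2) in the shRNA groups. Its siRNA values were like those of KIF4A in order, with a log2 difference of 0.15 and an adjusted p of 0.123 in limma. The antisense gene PRC1-AS1 lies over PRC1 and had group means of 24.9 and 23.6 FPKM in the shRNA groups and of 16.7 and 18.5 FPKM in the siRNA groups, scramble first. The strand setting of the counting is not stated, so reads of the pair cannot be told apart. ANLN, an actin-binding protein of the cleavage furrow, stood at 115, 121 and 133 FPKM (scramble) and 119, 123 and 147 FPKM (EZH2) in the shRNA groups and at 96.6, 99.3 and 111 FPKM (scramble) and 96.3, 102 and 115 FPKM (ZRANB1) in the siRNA groups. ECT2, which activates RhoA at the furrow, stood at 54.96, 58.6 and 66.7 FPKM (scramble) and 56.7, 60.8 and 80.1 FPKM (EZH2), and at 68.7, 69.3 and 80.4 FPKM (scramble) and 58.03, 61.2 and 71.99 FPKM (ZRANB1). The EZH2 shRNA and ZRANB1 siRNA values each overlapped their own control for ANLN and ECT2. KIF20A stood at 73.5, 74.7 and 76.3 FPKM (scramble) and 57.8, 58.1 and 60.5 FPKM (ZRANB1) in the siRNA groups, which did not overlap, with a log2 difference of -0.34 and an adjusted p of 0.168 in limma. With the spread estimated from the siRNA groups alone the adjusted p was 0.00977. KIF23, another kinesin of the central spindle, had log2 differences of -0.17 and -0.11.

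Topoisomerase II alpha, encoded by TOP2A, untangles sister chromatids. It stood at 129, 129.8 and 153 FPKM (scramble) and 117, 119.9 and 149 FPKM (EZH2) in the shRNA groups and at 154, 163 and 181 FPKM (scramble) and 118, 135 and 141 FPKM (ZRANB1) in the siRNA groups. The siRNA groups did not overlap, and the log2 difference was -0.34 with an adjusted p of 0.0645 in limma. MKI67, which encodes the proliferation marker Ki-67, stood at 54.99, 56.2 and 56.3 FPKM (scramble) and 54.9, 58.4 and 58.98 FPKM (EZH2) in the shRNA groups and at 57.1, 57.7 and 60.3 FPKM (scramble) and 52.7, 53.1 and 57.1 FPKM (ZRANB1) in the siRNA groups. Its level differed little, with 95% intervals of -0.092 to 0.17 and -0.23 to 0.028 for the log2 differences of the EZH2 shRNA and the ZRANB1 siRNA.

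The 2 scramble groups differed from each other in more of these genes than the EZH2 shRNA or ZRANB1 siRNA groups did from their controls. Of the 42, 6 stood higher in scramble siRNA than in scramble shRNA libraries by test and 11 lower, which was 40.5% against 50.6% of all tested genes (25.5% higher and 25.1% lower). The scramble siRNA values all lay above the scramble shRNA range for 12 of the 42 and below it for 11, against 30.8% and 29.2% of all tested genes. The higher ones were CENPA (0.73 on the log2 scale), CDC25C (0.59), BUB3 (0.44), AURKB (0.39), TPX2 (0.37) and BIRC5 (0.31). The largest falls were those of KIF4A (-0.90), CDC25B (-0.60), BUB1 (-0.53), PRC1 (-0.50) and NDC80 (-0.50), and CENPE, CKAP2, CDCA8, CDC20, ANLN and KIF2C were called lower too, with log2 differences from -0.40 to -0.24. The calls of CENPE, CKAP2 and ANLN were lost when some single values were left out, with adjusted p-values up to 0.0842, 0.103 and 0.152. That of ANLN was also kept in only 4 of 7 other settings, with adjusted p-values up to 0.0644 in limma. The groups of the 2 arms differ in how the RNA was delivered and possibly in much else, and these differences cannot be told apart. This comparison shares the scramble siRNA libraries with the ZRANB1 siRNA comparison, so the values are set side by side only: log2 differences between scrambles and with the ZRANB1 siRNA were 0.59 and -0.45 for CDC25C, 0.73 and -0.31 for CENPA, 0.37 and -0.20 for TPX2, and -0.90 and 0.35 for KIF4A.

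**Figure D3:**
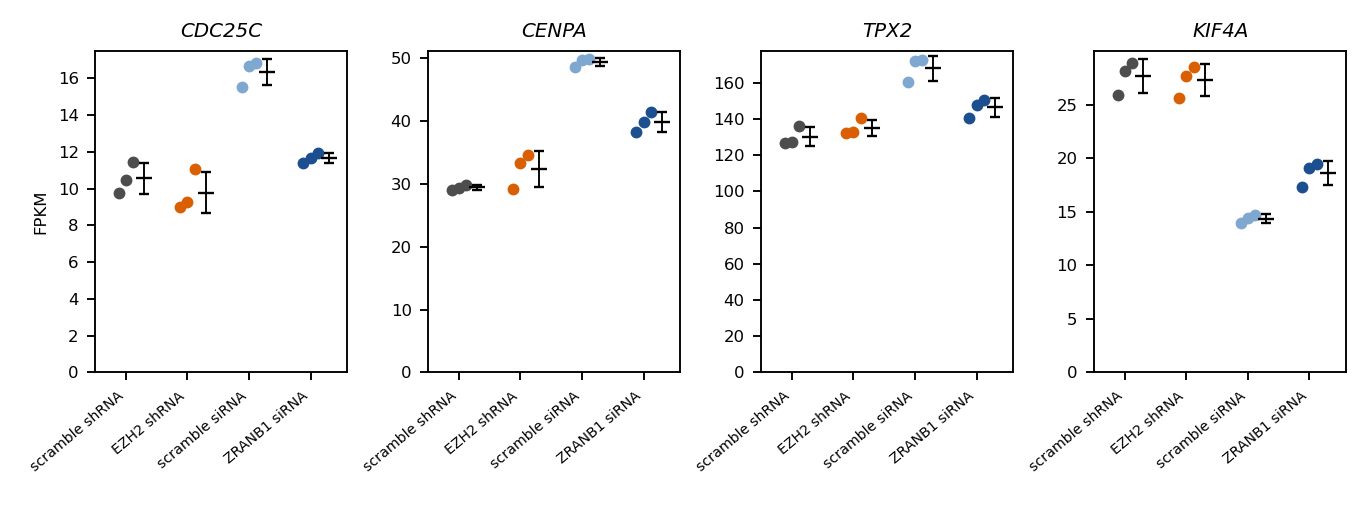
FPKM of CDC25C, CENPA, TPX2 and KIF4A in the 4 groups, with 3 points per group and, beside them, the mean with its SD. In each panel the ZRANB1 siRNA values lie apart from the scramble siRNA values, below them for CDC25C, CENPA and TPX2 and above them for KIF4A.

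The differences seen with the EZH2 shRNA and with the ZRANB1 siRNA were compared directly, as the EZH2 effect minus the ZRANB1 effect. Of the 42 genes, 2 were called, against 10.5% of all tested genes (3.58% higher and 6.91% lower). CENPA differed by 0.43 on the log2 scale (SE 0.099, adjusted p = 0.0165, limma), with 0.13 for the EZH2 shRNA and -0.31 for the ZRANB1 siRNA. KIF4A differed by -0.37 (SE 0.10, adjusted p = 0.0388), with -0.020 and 0.35. The CENPA call was kept after each of 12 leave-outs and that of KIF4A after 3 of 12, with adjusted p-values up to 0.0796. For CDC25C and TPX2, called with the ZRANB1 siRNA alone, the difference of effects had adjusted p-values of 0.0934 and 0.0951, so a difference between the effects was not shown for them.

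Around these genes, 150 further genes of the cell division machinery in 7 lists were read from the same fit, and 149 were matched and tested. With the EZH2 shRNA, 2 rose and 5 fell, and with the ZRANB1 siRNA 2 rose and 17 fell, or 4.70% and 12.8% of them. Both shares were under those of all tested genes in either direction (6.41% and 16.6%). Of all tested genes 10.1% were higher and 6.50% lower with the ZRANB1 siRNA. Falls with the ZRANB1 siRNA were thus a larger share of these genes than of all genes, and rises a smaller one. DNA replication genes gave 4 falls and 0 rises of 25 in each comparison, with median log2 differences of -0.18 and -0.17. These 4 were 16.0% of the list. Of all tested genes 6.41% were called with the EZH2 shRNA (3.03% lower) and 16.6% with the ZRANB1 siRNA (6.50% lower). With the ZRANB1 siRNA the share called in either direction was thus near that of all genes, while the share called lower was above it. The replicative helicase subunit MCM4 went from 73.98 ± 2.05 to 55.1 ± 0.443 FPKM (SD, n = 3) with the EZH2 shRNA and from 69.2 ± 0.959 to 58.05 ± 0.857 FPKM with the ZRANB1 siRNA. Its adjusted p-values in limma were 0.000969 and 0.00746. MCM3 and ORC6, also of the replication origin, fell by 0.34 and 0.32 on the log2 scale with the EZH2 shRNA, and the helicase subunits GINS2 and CDC45 fell by 0.40 and 0.36 with the ZRANB1 siRNA. Without the fold threshold, the number of replication genes called ran from 1 to 4 with the EZH2 shRNA and from 2 to 4 with the ZRANB1 siRNA over the other settings and leave-outs.

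In the other lists the share called was at most 5.26% with the EZH2 shRNA, against 6.41% of all tested genes. With the ZRANB1 siRNA it ran from 4.76% to 21.1%, against 16.6% of all tested genes (10.1% higher and 6.50% lower). Spindle and cytokinesis genes had 0 of 18 called with the EZH2 shRNA (1 at an unadjusted p below 0.05). With the ZRANB1 siRNA 3 of 18 were lower (16.7%), with a median of -0.18. The cytokinesis kinase CIT fell from 31.5 ± 1.16 to 21.4 ± 1.32 FPKM (SD, n = 3, adjusted p = 0.000186, limma), and SPAG5 (astrin) and CEP55, of the spindle and of abscission, fell by 0.27 and 0.34 on the log2 scale. Anaphase-promoting complex subunits went both ways with the ZRANB1 siRNA: ANAPC5 fell from 95.5 ± 3.31 to 72.3 ± 2.02 FPKM, ANAPC7 fell by 0.26 on the log2 scale, and ANAPC4 rose from 5.01 ± 0.684 to 7.08 ± 1.05 FPKM. Other kinetochore genes had 3 falls of 33 with the ZRANB1 siRNA (CENPN, ZWINT and KNTC1) and 1 rise with the EZH2 shRNA, that of SKA1 (0.43, adjusted p = 0.0456). Among 19 condensin, cohesin and separase genes 1 rose and 3 fell with the ZRANB1 siRNA: the cohesin ring gene SMC1A rose (0.23) and separase, encoded by ESPL1, and the condensin subunits NCAPG2 and NCAPD2 fell. PTTG1, which encodes the separase inhibitor securin, fell with the EZH2 shRNA (-0.25, adjusted p = 0.0383). The kinase NEK2 and the E2F partner TFDP2 fell with the ZRANB1 siRNA and the repressor E2F7 rose with the EZH2 shRNA (0.44, adjusted p = 0.0262). Each of the list counts of 1 went to 0 in at least 1 other setting or leave-out. With the ZRANB1 siRNA the 4 condensin, cohesin and separase calls went to 0 in at least 1 of them, and the 3 calls of the spindle, anaphase-promoting complex and kinetochore lists each went to 1.

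**Figure D4:**
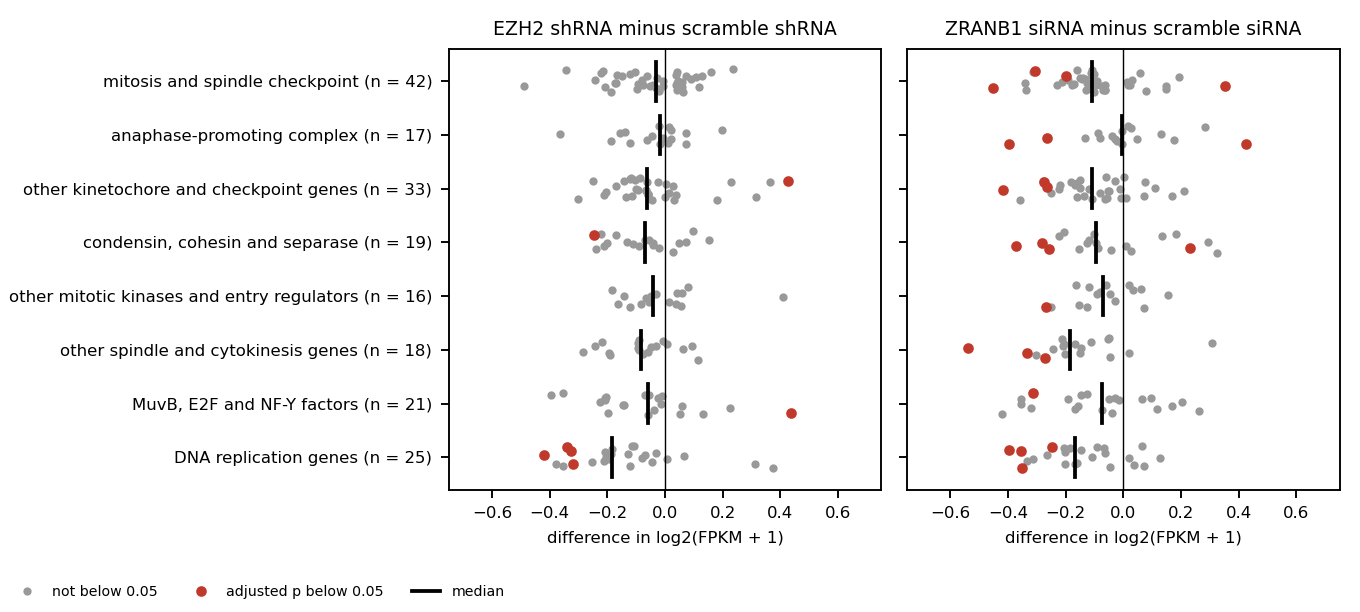
Difference in log2(FPKM + 1) of the tested genes of the mitotic list and of 7 companion lists in the EZH2 shRNA and ZRANB1 siRNA comparisons; red points have an adjusted p below 0.05 and bars are medians. The median of the DNA replication list lies at -0.18 with the EZH2 shRNA and -0.17 with the ZRANB1 siRNA, against -0.030 and -0.11 for the mitotic list.

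Promoters of cell cycle genes are known for the cell cycle genes homology region (CHR), bound by MuvB, and for the CCAAT box, bound by NF-Y. Promoter windows from 250 bases before to 50 bases after an annotated start were taken from RefSeq (GRCh38.p14, another build than the hg19 of the expression values), where 36 of the 43 genes had an entry. AURKA, TTK, UBE2C, BUB3, BIRC5, FOXM1 and TPX2 did not match. The CHR (TTTGAA, either strand) was found in at least 1 window of 26 of the 36 genes (72.2%) against 18.2% of 27305 genes, and CCAAT (either strand) in 29 (80.6%) against 39.7%. An E2F site (TTTGGCGC or TTTCGCGC, either strand) was found in 2 (5.6%) against 1.4%. None of the motifs contains another. Both CHR and CCAAT were in 22 genes, the CHR alone in 4, CCAAT alone in 7 and neither in 3. A first count used only the first RefSeq window of a gene and gave 25 of 36 (69.4%) against 15.4% for the CHR and 27 of 36 against 35.7% for CCAAT. The count over all windows of a gene was adopted after that, when CDC25C was seen to have its matches in another window, and it gives genes with several windows more chances. In the 250 bases before the start alone the shares were 58.3% against 16.1% for the CHR and 80.6% against 37.0% for CCAAT. A match is a run of letters and not a shown binding site.

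The 250 bases before the start are given for the 3 genes with a call in the ZRANB1 siRNA comparison that had an entry, to set CDC25C and CENPA, which fell, beside KIF4A, which rose. Capitals mark the CHR (TTTGAA or its reverse complement) and CCAAT (or its reverse complement ATTGG). CDC25C has 4 windows, of which 2 hold neither motif, and the one shown was chosen because it holds both. The windows lie at chr5:138331805-138332054 on the minus strand, chr2:26785806-26786055 on the plus strand and chrX:70289854-70290103 on the plus strand (GRCh38.p14), each written 5′ to 3′ along the gene.
CDC25C: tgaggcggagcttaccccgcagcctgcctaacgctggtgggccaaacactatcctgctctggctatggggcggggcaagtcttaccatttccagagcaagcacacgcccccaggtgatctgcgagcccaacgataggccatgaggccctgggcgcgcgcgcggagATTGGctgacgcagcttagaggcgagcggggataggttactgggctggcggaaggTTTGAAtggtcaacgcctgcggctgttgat
CENPA: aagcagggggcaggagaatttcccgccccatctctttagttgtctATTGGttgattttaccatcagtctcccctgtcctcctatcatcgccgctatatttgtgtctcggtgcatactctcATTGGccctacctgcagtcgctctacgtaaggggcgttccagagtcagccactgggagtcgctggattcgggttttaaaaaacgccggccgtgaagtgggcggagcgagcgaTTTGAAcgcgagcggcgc
KIF4A: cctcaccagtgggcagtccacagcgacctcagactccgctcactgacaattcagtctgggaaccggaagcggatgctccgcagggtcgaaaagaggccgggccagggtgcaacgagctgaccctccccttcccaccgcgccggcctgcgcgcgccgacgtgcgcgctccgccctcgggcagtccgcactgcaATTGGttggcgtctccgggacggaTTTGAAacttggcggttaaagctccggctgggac
In the 3 windows shown the CHR lies nearest to the start, with its first base at position -30 in CDC25C, -18 in CENPA and -34 in KIF4A (-1 is the base before the start), and a CCAAT box lies before it, at -85, at -205 and -130, and at -58. Another CDC25C window also holds both motifs, in another order. There CCAAT lies at -217, -200 and -12 and the CHR at 44, after the start. CDC25C and CENPA, which fell, and KIF4A, which rose, carried the same pair of motifs in the windows shown. The pair was in 22 of the 36 genes, and the CDC25C window was chosen for holding it. TPX2, which also fell, had no entry, so no link of the motifs to the calls can be read from this.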

How the data were processed

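RNA was sequenced from 12 LM2 libraries in 4 groups of 3. The authors deposited 1 table of FPKM values, for which the submitters' processing notes name hg19, Cufflinks and Cuffdiff (both 2.2.1), TopHat2 (2.1.1) and SAMtools. Options, annotation, strand setting and scaling are not given in the sources used, and the depth is unknown, as no counts are given. FPKM divides by library size, so a few abundant transcripts can lower all others.

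Of 26006 rows, the highest was kept for each of 440 repeated symbols. The 11929 genes whose mean reached 1 FPKM were analysed as log2(FPKM + 1) with limma 3.58.1 in R 4.3.3, with 4 group means, 8 residual degrees of freedom, a variance trend and Benjamini-Hochberg adjustment over all genes, and called at an adjusted p below 0.05. Fold changes are on that scale and understate changes of low genes. An exact two-sided permutation of 3 against 3 values has 0.1 as its smallest p and was not used. In rows with 3 different values within a group, these stood in text order in 100% of rows, so a column follows no library.

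The 43 genes, the companion lists and the tests were chosen with earlier results of these data known. By rule, values per library are given for genes called with the EZH2 shRNA or the ZRANB1 siRNA or in the difference, and otherwise for the 1 to 3 highest of a role group. Of companion lists up to 3 called genes per comparison are named, by adjusted p. KIF20A, NUSAP1, CCNB1, PLK1, CDC25B and NCAPD2 were added after their values were seen. The test was first run on simulated data with known changes. It called 8% of 1.2-fold changes in the EZH2 shRNA comparison and 6% in the ZRANB1 siRNA comparison. For 1.5-fold changes it called 54% and 50%, and for 2-fold changes 98% and 94%. Alternatives tried were fits of the compared groups alone, a filter at 5 FPKM or none, a pseudocount of 0.1, no variance trend, 1 scaling factor per group, summed rows, a 1.5-fold minimum and leaving out single values. Motifs were matched by letters in Python 3.11.15, and figures were drawn with matplotlib 3.10.9.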

Additional observations from a re-analysis of the deposited data

Results flagged for a closer look

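The effect of the EZH2 shRNA and that of the ZRANB1 siRNA, each against its own scramble control, differed by test for 2 mitotic genes. For CENPA the EZH2 effect minus the ZRANB1 effect was 0.43 on the log2 scale (95% interval 0.22 to 0.65, adjusted p = 0.0165 in limma over all genes). For KIF4A it was -0.37 (95% interval -0.59 to -0.15, adjusted p = 0.0388). In both genes the EZH2 shRNA values overlapped their control and the ZRANB1 siRNA values did not. Both genes also differed between the scramble groups, by 0.73 and -0.90, and the difference of effects contains both scramble groups.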

How the results depend on the processing

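No paired analysis was possible because the values of a group were stored in sorted order, so that a column follows no library and a replicate block could not be fitted. With a 1.5-fold minimum as well, the number of mitotic genes called was 0 with the EZH2 shRNA, 0 with the ZRANB1 siRNA, 4 between the scramble groups (2 higher and 2 lower) and 0 for the difference of effects. Leaving out 1 value per gene, in 1 random order, gave 0 to 0, 2 to 3, 14 to 18 and 1 to 2 calls in the same order. Over all tested genes the fit of the compared groups alone called 222 genes for the EZH2 shRNA, against 765. Under the other settings each of these 4 counts stayed within 1.5 times its first value, and no called gene changed direction. The count with the compared groups alone was 5 for the ZRANB1 siRNA (1 higher and 4 lower), with TPX2 uncalled and KIF20A and TOP2A called. Single calls kept in every setting and single-gene leave-out, the 1.5-fold minimum aside, were 3 of 4 with the ZRANB1 siRNA (all but TPX2), 14 of 17 between scrambles and 1 of 2 for the difference (CENPA). Leave-outs of single genes kept the variance prior of the full fit. In the refits with 1 value per gene left out, 1 to 2 genes were called lower with the ZRANB1 siRNA. CDC25C and CENPA were thus not both kept in each refit. With 3 values in a group, and depth unknown, small differences may be missed.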

Other observations

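The mitotic genes varied more between the 3 EZH2 shRNA libraries than within the other groups. The median coefficient of variation of the 42 genes was 11.9% with the EZH2 shRNA, against 6.81% with the scramble shRNA, 6.72% with the scramble siRNA and 7.20% with the ZRANB1 siRNA. Over all tested genes these medians were 12.3%, 9.45%, 9.06% and 9.51%. NUSAP1 had the widest spread of the 42 with the EZH2 shRNA (26.6%), and SPC24, a subunit of the outer kinetochore, the widest with the ZRANB1 siRNA (21.3%). The merged row of BUB1B and PAK6, kept out of the 42, stood at 36.2, 36.8 and 38.6 FPKM with the scramble shRNA, 35.7, 38.6 and 38.7 with the EZH2 shRNA, 24.8, 25.6 and 28.9 with the scramble siRNA and 29.7, 29.9 and 30.97 with the ZRANB1 siRNA.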
